A study of Bos taurus with 18 samples.

Results

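A group of 59 bovine genes was switched on when satellite cells differentiated after serum reduction, and stayed below 50% of that level in a serum-free differentiation medium. The members were chosen by their mean CPM (the counts of a gene per 1000000 reads assigned to genes in a library) in 3 media: below 1 CPM in the serum growth medium, at least 5 CPM in the serum-based differentiation medium, and less than 50% of the latter in the serum-free differentiation medium. Of 27607 gene identifiers in the table, 150 met the first 2 limits, and 59 of these also met the third. The other 91 reached at least 50% and are given below for comparison. All 59 passed the expression filter that left 14637 genes for testing.

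Satellite cells are the resident stem cells of skeletal muscle. Once activated they divide as myoblasts, and on leaving the cell cycle these become myocytes, which fuse into myotubes and turn on the genes of the contractile apparatus, calcium handling and muscle energy metabolism. In culture this step is commonly started by lowering the serum, and a medium that supports it without serum is of interest for cultured meat.

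The libraries were made from poly(A) RNA of Belgian Blue cattle satellite cells grown on collagen-coated flasks, with 3 replicates, A to C, in each of 6 groups. Both growth media were sampled at 0 h: GM, with 20% fetal bovine serum, and SFGM, without serum. The other groups were sampled after 72 h of differentiation. GM cells were moved to DM, which holds 2% serum. SFGM cells were moved to 1 of 3 media without serum, namely SFB (the base medium), SFDM (differentiation medium built on DMEM/F-12) or DMEM (a version of SFDM built on DMEM). The series' text calls the replicates biological, in a sentence that leaves out SFB, and does not say whether they came from separate animals or cultures. The p-values therefore cover only the spread between these libraries, which may be partly technical. Serum and time changed together between GM and DM, and DM and the serum-free 72 h groups differ in both the growth medium before and the medium after, so these cannot be told apart. Library totals ranged from 16162525 to 28589018 counts, lowest in SFDM A. The identifiers could not be paired with gene symbols, so the defining markers of muscle and other cell types were not analysed here and members are described by their level, with 4 identifiers chosen by a rule and the others by their rank in DM.

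The values that chose the members give a description and were not tested. The members' mean level in DM ranged from 5.04 to 277 CPM with a median of 12.8, and 37 of the 59 stood at 10 CPM or more. In GM their median was 0.277 CPM, from a median of 23 counts over the 3 libraries, and 1 member had no count in any GM library. In SFDM the median was 2.67 CPM, and per member the SFDM level was 25.5% of the DM level (median, quartiles 10.8% and 37.9%). The members nearest to the limit of 50% stood at 48.4%, 47.9% and 47.7% of DM, and the genes just outside it at 50.3%, 50.5% and 51.0%. At the other limits, the lowest member had 5.04 CPM in DM and the nearest gene outside 4.93, while the highest member had 0.948 CPM in GM and the nearest gene outside 1.01. In 47 of the 59 the highest SFDM library lay below 50% of the lowest DM library. For the others the limit fell within the spread of the libraries. Over the members, the median coefficient of variation between replicates was 12.6% (DM), 13.6% (SFDM), 15.3% (DMEM) and 24.0% (SFB).

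**Figure D1:**
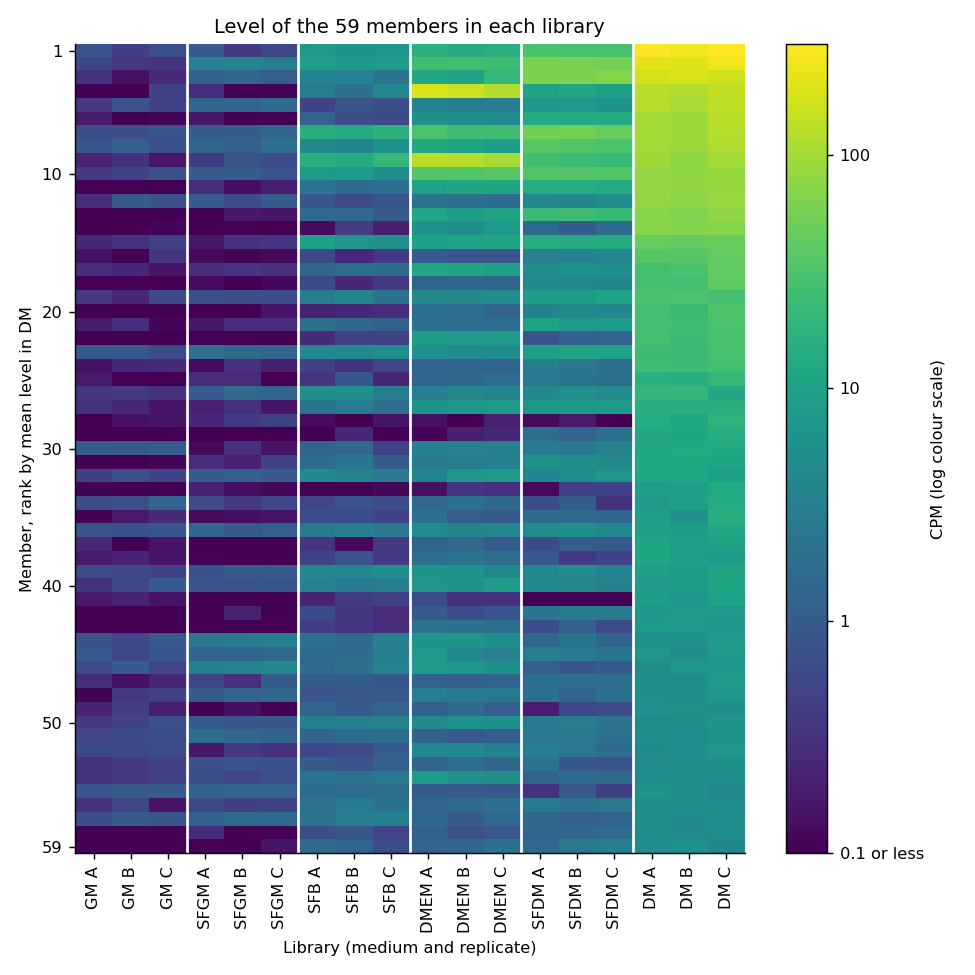
Each row is 1 of the 59 members, ordered by its mean level in DM (rank 1 at the top), and each column 1 of the 18 libraries. Colour gives the level in CPM on a log scale, with 0.1 CPM and less in the darkest colour. The DM columns are brightest for most rows, and the rows ranked 4 and 9 are as bright in DMEM as in DM.

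As shares of the library, the members together made up 2316, 2171 and 2561 CPM in DM replicates A, B and C. In SFDM they made up 520, 518 and 494 CPM. In DMEM the sums were 653, 591 and 535 CPM, in SFB 149, 141 and 149, and in GM 19.9, 21.9 and 23.5. The SFGM sum was 40.8 ± 1.40 CPM (SD, n = 3). The groups do not overlap on this sum, and the order from low to high was GM, SFGM, SFB, SFDM, DMEM, DM. The place of DMEM above SFDM rested on the members ranked 4 and 9, which were singled out after their values were seen and carried 47.1% of the DMEM sum. Without them the other 57 members summed to 314 ± 11.1 CPM in DMEM and 476 ± 11.4 in SFDM (SD, n = 3). Set against DM, the sum over all members reached 6.21% (SFB), 21.7% (SFDM) and 25.2% (DMEM). The 91 comparison genes reached 24.2%, 96.1% and 46.7% of their DM sum in the same media. The rule set the gap between the 2 lists in SFDM. It also used DM, so it may have set part of the gaps in SFB and DMEM. The RNA comes from whole cultures, so fewer differentiated cells and less RNA of these genes per cell cannot be told apart.

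**Figure D2:**
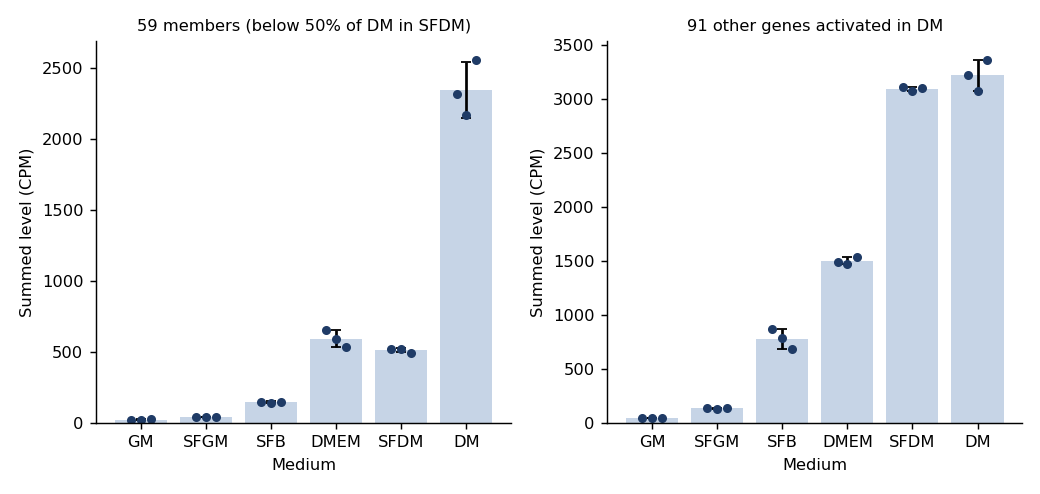
Summed level in CPM of the 59 members (left) and of the 91 other genes activated in DM (right) in each medium. Bars are means of 3 libraries, error bars are SD and points are libraries. For the members SFDM stands at 511 CPM against 2349 in DM, and for the other genes at 3095 against 3219.

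Before differentiation the members were low in both growth media. In SFGM their median level was 0.369 CPM, 43 of the 59 were below 1 CPM, and none reached 5 CPM. The SFGM mean was above the GM mean for 41 members and below it for 18, compared with 7547 above and 7061 below among the 14637 tested genes. The limit of 1 CPM applied to GM and not to SFGM, which favours higher values in SFGM. The highest SFGM level was that of the member ranked 46, with 3.18, 3.43 and 4.07 CPM in SFGM against 0.636, 1.03 and 0.541 in GM. In that member SFGM stood at 56.2% of DM, the only one of the 59 at 50% or above.

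The groups SFGM, SFB and DMEM were not used by the rule, so DMEM and SFB at 72 h could be tested against SFGM at 0 h. Time and medium changed together in both comparisons, so these cannot be told apart. In DMEM against SFGM most members rose. The edgeR quasi-likelihood test with Benjamini-Hochberg adjustment over all 14637 genes called 54 of the 59 higher at an adjusted p under 0.05, where 32.1% of all tested genes were called higher. All 54 were at least 2-fold higher, where 2051 of the 14637 tested genes were called higher by at least 2-fold. A single member (1 of 59) was called lower, where 31.3% of all genes were, and 4 were not called. The rule required a low level in GM, and 43 of the 59 were below 1 CPM in SFGM too. This left little room for a lower call. The tested genes span all levels, so their share called lower is not a like comparison. The expression filter was applied over all 6 groups, and with only the DMEM and SFGM libraries 55 members passed it and 52 were called higher. In that setting 9072 of 13960 genes were called, 51.0% of them higher. The median log2 fold change was 3.01 over the members and 0.00 over all tested genes. For the 91 comparison genes it was 3.44, with 88 called higher and 0 lower. The 4 members that were not called had DM levels of 5.13 to 10.8 CPM and log2 fold changes between -0.32 and 0.81.

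In SFB, the serum-free base medium, most members rose as well. There 46 of the 59 were called higher against SFGM, where 28.6% of all genes were, and 2 were called lower, where 29.9% were. The low SFGM levels left little room for lower calls here as well. Only 44 of the 59 passed the filter on the SFB and SFGM libraries alone, and 35 of these were called higher there. The other 15 entered the test through groups such as DM, in which the rule required a high level. On the SFB and SFGM libraries alone 7944 of 13809 genes were called, 50.1% of them higher. The median log2 fold change was 2.03 over the members, -0.02 over all genes and 2.65 over the 91 comparison genes, of which 82 were called higher and 2 lower. Among the members 44 were called higher by at least 2-fold, where 1615 of the 14637 tested genes were. Both comparisons with SFGM share the SFGM libraries. With scaling by totals alone, rises made up 38.3% of all calls in SFB against SFGM, against 48.9% as reported, the median of all genes shifted by -0.12 log2 units, and 43 members were called higher. The member ranked 41 had no count in any SFGM library. Against a floor of 3 counts over the 3 libraries, its mean level was 10.9-fold higher in DMEM and 9.46-fold higher in SFB. The floor bounds the SFGM side only, and the DMEM and SFB means rest on 33 and 27 counts. This member passed the filter only through other groups. With this member at its bound the medians were again 3.01 and 2.03.

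**Figure D3:**
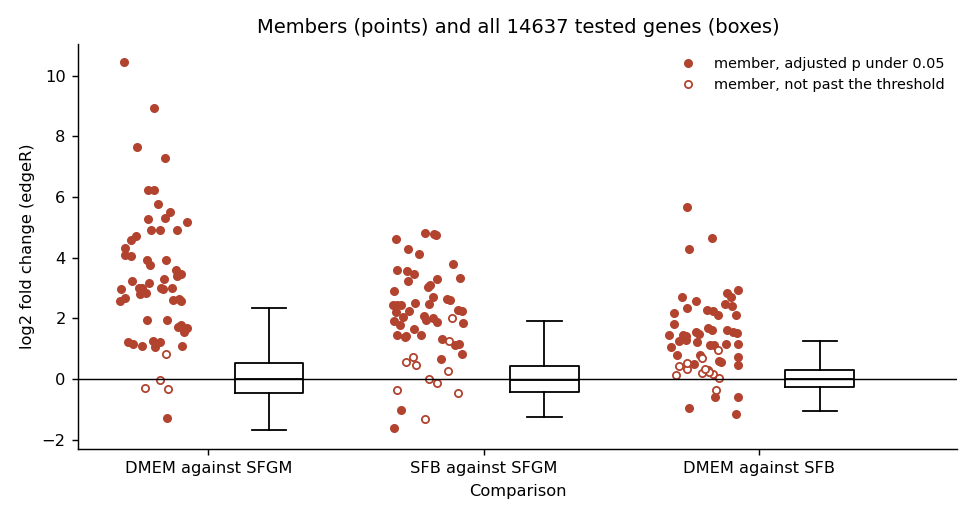
Log2 fold changes of the 59 members (points) in 3 comparisons of groups the rule did not use, beside all 14637 tested genes (box from the first to the third quartile with the median, whiskers at the 5th and 95th percentiles). Filled points passed an adjusted p under 0.05. The member without a count in SFGM is drawn at its bound of 3.45 and 3.24 in the first 2 comparisons. The members' medians are 3.01, 2.03 and 1.23, against 0.00, -0.02 and 0.00 for all genes.

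A direct comparison of DMEM and SFB showed most members higher in DMEM. SFB is the base medium, while DMEM is a differentiation medium with its base changed as well, so the parts of this difference cannot be told apart. Of the 59, 42 were called higher, where 20.8% of all genes were. In 35 of them the rise was at least 2-fold, compared with 908 of the 14637 tested genes. A further 4 members were called lower, where 20.1% of all genes were, and 13 were not called. In SFB 23 of the 59 were below 1 CPM, which left little room for lower calls, so the share of all genes called lower is not a like comparison. On the DMEM and SFB libraries alone 56 members passed the filter, of which 35 were called higher and 2 lower. In that setting 4027 of 13853 genes were called, 51.5% of them higher. The median log2 difference was 1.23 over the members and 0.92 over the 91 comparison genes, of which 64 were called higher and 10 lower. Of the 24 members with at least 20 CPM in DM, a limit set after the values were seen, 22 were higher in DMEM and 0 lower, and the median log2 difference was 1.93. Of the 35 below 20 CPM, 20 were higher and 4 lower, with a median of 0.78. The members below 20 CPM have fewer counts, and the part of depth in this was not tested.

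ENSBTAG00000005333 had the highest DM level of the 59. It stood at 283, 249 and 299 CPM in DM A, B and C, and at 30.3, 29.2 and 29.1 in SFDM. In DMEM it stood at 17.2, 14.0 and 15.9 CPM, in SFB at 7.47, 6.35 and 6.77, in SFGM at 0.992, 0.385 and 0.553, and in GM at 0.813, 0.460 and 0.695. The 4 groups at 72 h do not overlap, while the growth media do. SFDM reached 10.7% and DMEM 5.66% of the DM level. DMEM was 2.22-fold above SFB (log2 1.15 ± 0.14, SE, edgeR adjusted p = 4.02e-06), with every DMEM library above every SFB library. Against SFGM the log2 fold change was 4.70 ± 0.19 in DMEM and 3.55 ± 0.21 in SFB (SE, edgeR adjusted p = 1.5e-12 and 2.56e-10).

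ENSBTAG00000020080 came next, with 215, 206 and 256 CPM in DM and 60.7, 59.7 and 56.1 in SFDM. Its DMEM libraries stood at 25.7, 26.0 and 23.9 CPM, its SFB libraries at 9.30, 7.53 and 7.31, and its SFGM libraries at 3.51, 3.46 and 2.92. GM was lowest, at 0.530, 0.354 and 0.348 CPM, so that none of the 6 groups overlap. The SFDM level was 26.1% and the DMEM level 11.2% of DM. DMEM exceeded SFB 3.04-fold (log2 1.60 ± 0.11, SE, edgeR adjusted p = 3.61e-09) and SFGM 8.01-fold (log2 3.00 ± 0.12, SE, edgeR adjusted p = 9.13e-13).

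The 4 members called lower in DMEM than in SFB all had DM levels between 5.13 and 5.45 CPM. ENSBTAG00000015043 had 5.34, 4.98 and 6.04 CPM in DM and 2.41, 2.44 and 2.03 in SFDM. It had 1.32, 0.877 and 1.14 CPM in DMEM, below the 1.37, 1.71 and 1.80 of SFB, and 1.70, 1.40 and 1.30 in SFGM. GM stood at 0.530, 0.601 and 0.618 CPM. Against SFB the log2 difference was -0.59 ± 0.19 (SE, edgeR adjusted p = 0.0183). The adjusted p rose to 0.121 without DMEM B, 0.0585 without SFB B, 0.0661 without SFB C and 0.101 when the other groups were not fitted, within a range of 0.0114 to 0.121 over 13 alternatives. Against SFGM it was not called in DMEM or SFB (edgeR adjusted p = 0.174 and 0.206).

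ENSBTAG00000049058 had 6.19, 5.38 and 4.08 CPM in DM and 0.309, 0.932 and 0.462 in SFDM, from 41 counts over the 3 SFDM libraries. SFB, at 1.71, 1.75 and 1.92 CPM, lay above DMEM, at 0.962, 0.997 and 0.887, and SFGM lay between them at 1.20, 1.29 and 1.22. In GM it had 0.924 ± 0.0994 CPM (SD, n = 3), and SFDM B was the only SFDM library within the range of GM and the other SFDM libraries were below it. The log2 difference of DMEM to SFB was -0.96 ± 0.24 (SE, edgeR adjusted p = 0.00425). SFB against SFGM gave 0.65 ± 0.23 (SE, edgeR adjusted p = 0.0246), a call that was lost without SFB C, SFGM A or SFGM C (0.0649, 0.0636 and 0.0595) and with scaling by totals alone (0.0611), within a range of 0.00953 to 0.0649 over 13 alternatives.

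The level reached in DMEM ranged widely among the members. The rule did not limit DMEM or SFB. It did use DM, the divisor of the shares given here, so the gaps to the comparison genes may be partly set by the rule. Relative to DM, DMEM had a median of 20.6% (quartiles 9.04% and 37.5%) and ranged from 0.975% to 132%. In 11 members DMEM reached at least 50% of DM, and in 4 it reached the DM level or more. Of the 11, 2 had at least 20 CPM in DM, and the median DM level of the 11 was 6.65 CPM. The 4 were those ranked 4, 9, 46 and 54, with 131, 90.8, 6.33 and 5.22 CPM in DM. SFB had a median of 8.25%, with 2 members at 50% or more, and 32 members stayed below 10%. For the 91 comparison genes the medians were 55.1% in DMEM and 31.5% in SFB. Against the same DM libraries, the 24 members at 20 CPM or more had medians of 17.0% in SFDM, 10.9% in DMEM and 2.31% in SFB, and the 35 lower members 28.8%, 26.1% and 16.4%. The split used DM, the divisor of these shares, which favours lower shares in the 24. Before differentiation, in SFGM, the medians were 0.688% for the 24 and 5.36% for the 35.

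**Figure D4:**
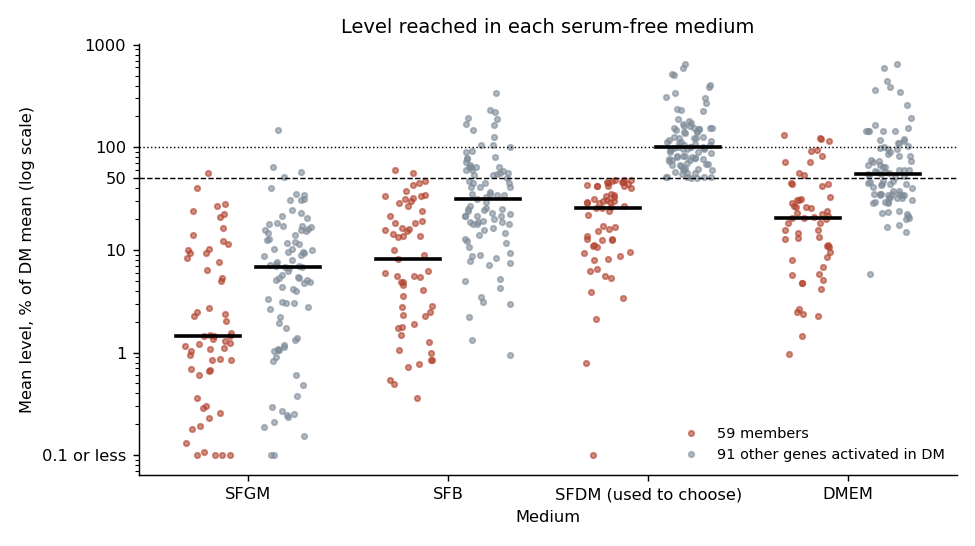
Mean level in each serum-free medium as a percent of the mean in DM, on a log axis, for the 59 members and the 91 other genes activated in DM. Each point is a gene, bars are medians, values of 0.1% and less are drawn at 0.1%, and lines mark 50% and 100%. SFDM chose the members, so its gap between the lists is fixed by the rule. DM, the divisor in every medium, was used by the rule too, so the other gaps may be partly set by it. In DMEM the members' median is 20.6% and that of the other genes 55.1%.

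Between the 2 bases of the differentiation medium the members went both ways. The SFDM libraries were used by the rule, which favours higher values in DMEM, so DMEM and SFDM are set side by side with no test. DMEM had the higher mean in 27 members and the lower in 32, and the median ratio of DMEM to SFDM was 0.816. Every DMEM library lay above every SFDM library in 18 of the 59 members. This is close to the share of all tested genes, 31.0%, and is not read as a trait of the members. Every DMEM library lay below in 27 of the 59, where this held for 21.2% of all tested genes. The remaining 14 overlapped. Among the 24 at 20 CPM or more in DM, every DMEM library was lower in 18 and higher in 5, and among the 35 others lower in 9 and higher in 13. Of the 91 comparison genes every DMEM library was lower in 69 and higher in 8.

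Several highly expressed members were far higher on the DMEM base. These and the members below were singled out by rank after their values were seen. The member ranked 4 stood at 130, 117 and 145 CPM in DM, at 10.8, 11.8 and 9.61 in SFDM, and at 191, 165 and 121 in DMEM. SFB had 2.86, 1.91 and 4.18 CPM, and the 3 SFGM libraries held 9 counts in all. Its DMEM range overlapped that of DM, and DMEM was 14.8-fold above SFDM. Against SFB, DMEM was 51.4-fold higher (log2 5.68 ± 0.27, SE, edgeR adjusted p = 5.47e-11), and this was the largest log2 difference among the 59 in that comparison. The members ranked 4 and 9 were picked with their DMEM levels seen, so their p-values are not independent of the choice.

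The member ranked 9 was similar, with 95.4, 77.8 and 99.2 CPM in DM, 26.4, 24.5 and 21.8 in SFDM, and 136, 123 and 101 in DMEM. Every DMEM library was above every DM library. SFB stood at 15.3, 13.4 and 20.6 CPM, and DMEM was 7.05-fold above it (log2 2.82 ± 0.16, SE, edgeR adjusted p = 4.52e-10). The members ranked 14 and 22 were also higher in DMEM than in SFDM, 4.51-fold and 7.76-fold, but stayed at 9.56% and 30.4% of DM. That ranked 22 had 28.2, 24.2 and 30.2 CPM in DM, 0.804, 1.18 and 1.25 in SFDM, and 9.01, 7.97 and 8.11 in DMEM. In all, 12 members were at least 2-fold higher in DMEM than in SFDM, where this held for 1149 of the 14637 tested genes.

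The opposite pattern was seen in 14 members, with SFDM at least 2-fold above DMEM, where this held for 924 of the 14637 tested genes. Of the 14 members, 11 had at least 20 CPM in DM. Here the member ranked 3 had 177, 191 and 170 CPM in DM. In SFDM it had 62.1, 61.2 and 66.9 CPM, or 35.4% of DM, and in DMEM 11.8, 10.8 and 20.7, with DMEM C apart from the other DMEM libraries. SFB stood at 3.54, 3.50 and 2.19 CPM. None of these 4 groups overlap. DMEM was nevertheless 4.54-fold above SFB (log2 2.18 ± 0.22, SE, edgeR adjusted p = 4.25e-07).

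**Figure D5:**
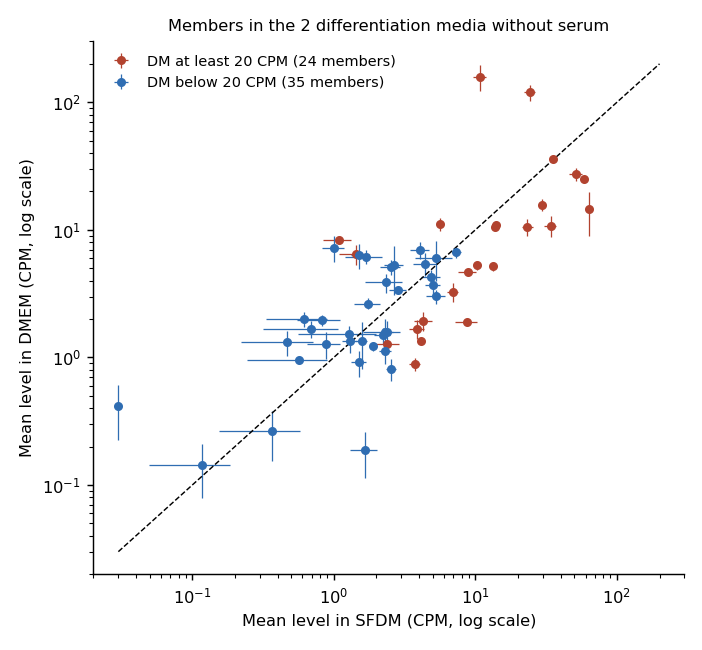
Mean level of each member in DMEM against SFDM, in CPM on log axes, with SD over 3 libraries as error bars (cut short where they would reach 0). Red points have at least 20 CPM in DM and blue points less, the dashed line marks equal levels, and the member without a count in SFDM is drawn at 0.03 CPM. Points lie on both sides of the line, 27 above and 32 below.

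SFDM stood above the serum-free base medium for most members. SFDM was used by the rule, with a limit that favours lower values, and no test was made. Every SFDM library lay above every SFB library in 40 of the 59, where this held for 15.9% of all tested genes, and below in 7, where it held for 25.3%. In all 24 members at 20 CPM or more in DM the SFDM libraries were above those of SFB, and the median ratio was 5.59. Among the 35 lower members this was so for 16, and the median ratio was 1.41. In 9 members, all with a DM level below 20 CPM, the mean in SFB was at or above that in SFDM. Considering the 4 serum-free groups together, 26 members had the order SFGM, SFB, DMEM, SFDM from low to high, and 16 had SFGM, SFB, SFDM, DMEM. The first of these orders was found in 65 of the 91 comparison genes and the second in 7.

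A small number of members stayed far below DM in every serum-free medium. In 8 of the 59, SFB, SFDM and DMEM were all below 10% of DM, and 5 of the 8 had at least 20 CPM in DM. This does not place all 8 at their SFGM level, since those ranked 5, 12, 14, 16 and 24 were called higher in DMEM against SFGM. The member ranked 41 was called higher too, but passed the filter only through other groups. That ranked 33 was not called, with 20 counts in DMEM and 12 in SFGM, and that ranked 28, described below, was called lower. In SFB against SFGM those ranked 12 and 33 were not called, and those ranked 5 and 28 were called lower. The member ranked 5 had 123, 109 and 136 CPM in DM but 7.12, 7.42 and 6.24 in SFDM and 3.88, 2.95 and 2.92 in DMEM. In SFB, at 0.512, 0.814 and 0.665 CPM, it lay below SFGM, at 1.49, 1.29 and 1.66. It was called lower in SFB and higher in DMEM against SFGM (edgeR adjusted p = 0.00188 and 2.45e-05). The member ranked 12 had 81.0, 75.5 and 87.2 CPM in DM, 4.02, 3.84 and 4.99 in SFDM, and 2.28, 1.87 and 1.65 in DMEM. Its SFB and SFGM ranges overlapped, at 0.896, 0.651 and 0.860 and at 0.992, 0.665 and 0.987 CPM.

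The member ranked 28 had 14.8 ± 2.92 CPM in DM (SD, n = 3), while SFDM, DMEM and SFB held 8, 11 and 8 counts over 3 libraries each and GM held 9. SFGM held 29 counts. This was the single member counted above as lower in DMEM against SFGM, and 1 of the 2 counted as lower in SFB. The DMEM call was lost when DMEM A, DMEM B, SFGM B or SFGM C was left out. On the libraries of the compared groups alone the member did not pass the filter in either comparison, and no change between the serum-free groups is read from it. The member ranked 41 had 8.96, 7.11 and 10.4 CPM in DM and no count in any SFDM or SFGM library. Its level was 0.419 ± 0.193 CPM in DMEM, 0.363 ± 0.133 in SFB and 0.181 ± 0.029 in GM (SD, n = 3), from 33, 27 and 15 counts. For SFDM, no count over 3 libraries allows a level of up to 0.0457 CPM, a limit that covers counting error only.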

How the data were processed

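The authors deposited counts, whole numbers of reads per Ensembl bovine gene identifier, for 18 libraries. The kit was a stranded mRNA kit and reads were 75 bp long, per the labels' protocols. STAR 2.7, featureCounts and bosTau9 were used, per the submitters' processing notes. Neither the strand setting nor the annotation release is given in the sources used here, and reads of overlapping, antisense or near-identical genes may be split or lost.

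Columns were matched to samples by label. Levels are CPM from column totals. Tests used R 4.3.3 and edgeR 4.0.16: filterByExpr (minimum count 10, minimum total 15), TMM scaling, quasi-likelihood fits with 1 coefficient per group over all 18 libraries, two-sided contrasts and Benjamini-Hochberg adjustment at 0.05. SE is the log2 fold change divided by the square root of F. Only SFGM, SFB and DMEM, which the rule did not use, were tested. The members, limits and tests were chosen with earlier results of these data known. The identifiers named are the 2 with the highest DM level among members called higher in DMEM against SFB and the 2 among those called lower. The available symbol table paired 0 identifiers, so the planned gene and marker lists and sequences were not used here.

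Counts of replicate pairs differed beyond sampling noise (chi-square per degree of freedom 1.85 to 41.9, genes with at least 10 counts), and each library was a replicate. Tested on simulated data for DMEM against SFB with 14492 genes, the test found 66% of 50 genes with a 1.5-fold change. For 2-fold changes it found 92%, for 4-fold 98% and for 8-fold 100%. The changed genes were drawn from those with a mean of at least 10 counts in the SFB libraries. Some members lie below that, and these rates do not cover them. False calls made up 7.29% of the calls. The simulation changed 50 genes at each fold, while 5982 of the 14637 tested genes were called in the data, so these rates may not hold there. Alternatives were RLE scaling, totals alone, no or a stricter filter, DESeq2 1.42.0, only the compared groups, the replicate letter as a block, leaving out each library, and other membership limits.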

Additional observations from a re-analysis of the deposited data

Results flagged for a closer look

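The member ranked 5 by DM level moved in opposite directions in 2 media compared with SFGM: it was called lower in SFB (log2 -1.03 ± 0.25, SE) and higher in DMEM (log2 1.21 ± 0.19, SE). The direct test of DMEM against SFB gave a log2 difference of 2.24 ± 0.22 (SE, edgeR adjusted p = 3.3e-07). All 3 DMEM libraries, at 3.88, 2.95 and 2.92 CPM, were above the 3 SFGM libraries, and all 3 SFB libraries were below them. The 2 comparisons with SFGM share those libraries. Groups of 3 replicates are too small for a search for single outlying libraries.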

How the results depend on the processing

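The number of members was 59 as reported, 66 with TMM-scaled and 67 with RLE-scaled CPM (all 59 included in each), 37 with a DM limit of 10 CPM, 44 with an SFDM limit of 40%, 38 with a GM limit of 0.5 CPM, and 56 to 67 when single GM, DM or SFDM libraries were left out. In DMEM against SFGM, SFB against SFGM and DMEM against SFB, the counts of members called higher moved by over 1.5 times only with the DM limit of 10 CPM, to 35 and 30 in the first 2, where fewer members were counted. Over single libraries left out they were 53 to 54, 42 to 46 and 36 to 41, with the other settings between 32 and 59. With only the compared groups 44 members were tested in SFB against SFGM. The few members called lower depended more on the settings. In DMEM against SFGM the 1 lower member became 0 with only these 2 groups and 2 for members by TMM-scaled CPM, and 0 to 1 over libraries left out. In SFB against SFGM the 2 became 1 with only these 2 groups and 5 for members by TMM-scaled CPM, and 1 to 3 without single libraries (1 without SFB B or SFGM C). In DMEM against SFB the 4 became 2 with only these 2 groups, 0 with the DM limit of 10 CPM, 2 with the SFDM limit of 40%, and 2 to 4 without single libraries (2 without DMEM B or SFB B). The cause was not tested. The median percent of DM was 1.44% in SFGM, with 1.30% by TMM-scaled and 1.26% by RLE-scaled CPM and 1.21% to 1.66% without a replicate letter, and 20.6% in DMEM, with 19.6%, 19.3% and 19.9% to 21.3%. Those of SFB and SFDM moved by less than the SD between replicates, with 7.08% to 10.2% and 24.8% to 26.6% without a letter. The letters did not pair the libraries by the criterion of all correlations above 0.1: across genes, deviations of libraries with the same letter correlated at -0.127, 0.00203 and -0.324 (DMEM and SFGM), 0.0934, 0.186 and 0.336 (SFB and SFGM) and -0.381, -0.0219 and -0.590 (DMEM and SFB) for A, B and C, and each library correlated best with its own letter in 0, 5 and 0 of 6 cases. With the replicate block 54, 46 and 42 members were called higher in the 3 comparisons, and 1, 2 and 3 lower. Depth limits levels to a floor of 3 counts over a group, 0.0364 to 0.0457 CPM.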
